A study of Sus scrofa with 85 samples.

Results

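MTHFD1L (ENSSSCG00000004092), SPIDR (ENSSSCG00000006277), TP53INP1 (ENSSSCG00000034321), ENSSSCG00000014997 and ENSSSCG00000030358 are 5 of the 31907 genes counted in micro-endomyocardial biopsies (micro-EMB) and blood of swine with myocardial infarction. They were chosen by their behaviour in these data. ENSSSCG00000014997 is plotted without a symbol among the top genes of the study. The other 4 were selected on levels in the infarcted region at 1–3 h that all lay above (MTHFD1L and SPIDR) or all below (TP53INP1 and ENSSSCG00000030358) those of baseline. Values of that contrast, and for ENSSSCG00000014997 also of 2 days against baseline, are therefore a description and carry no test.

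The animals were 3 female pigs of mixed Yorkshire and Swedish farm breed, whose age is not given in the sources used here. A balloon closed the distal left anterior descending artery and was then deflated, so that 0–1 h fell within the occlusion and 1–3 h within the first hours of reperfusion. Every session shared sedation, anaesthesia and fentanyl, the antiarrhythmic amiodarone was given around the intervention, and buprenorphine and meloxicam followed it. Apical biopsies were aimed at the infarcted region and lateral ones at a non-infarcted and more basal region. Baseline biopsies came from before the occlusion, and the labels call them apical. Per the study they were not targeted to a specific region, and they served both regions. In a difference from baseline, site and time therefore cannot be told apart. Biopsies and blood were taken again from the same swine at 2 and 14 days, so the libraries of a group are repeated samples of at most 3 animals, and p-values measure the spread between libraries. Fewer cells of a type and less RNA per cell cannot be told apart in these bulk samples.

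Of 85 libraries, the 57 with a total count of at least 1000000 and 7 to 60% of their counts in their 10 most counted genes were used. These were 29 apical, 16 lateral and 12 blood libraries with total counts of 3499443 to 16659110. The share was 8.55% in the library just inside the lower limit and 6.33% in the library just outside it, and 46.7% and 63.9% at the upper limit. A level is given as log2 CPM, which is the log2 of counts per 1000000 counts of a library scaled by TMM. All 5 genes passed the filter on low counts in every fit, and their lowest count in any heart library was 29. Heart muscle genes identified the biopsies: 7 of 10 listed markers were matched to the table, and their summed CPM had a median of 51000 at apical baseline and of 78.1 in blood at 14 days. It was low in single biopsies, down to 79.3 at apical 1–3 h, where fibroblast markers reached 83627. The 6 heart libraries of this fibrous kind lay above 25 on the component of a PCA of 500 genes that rises with the outlier genes of the study, with 1 each at apical baseline, 0–1 h, 1–3 h, 2 days and 14 days and at lateral 1–3 h. The study excluded its fibrous outliers and its samples contaminated with blood. Here the fibrous libraries stay in the main fits, and fits without them are an alternative.

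Coronary occlusion stops oxidative metabolism, and reperfusion adds oxidative stress, DNA damage and an inflammatory reaction, to which cells respond by rapid changes in transcription. MTHFD1L encodes a mitochondrial enzyme of folate one-carbon metabolism that releases formate, SPIDR a scaffold protein of DNA repair by homologous recombination, and TP53INP1 a stress protein induced by p53 that acts in cell death and autophagy. ENSSSCG00000014997 and ENSSSCG00000030358 have no symbol in the gene names used here, and only the annotation terms the study attached to them are used.

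The 3 named genes lie on chromosomes 1 and 4 of Sscrofa11.1, the build of the counts. In the RefSeq annotation, MTHFD1L occupies chr1:15140929-15330265 on the minus strand in 29 exons, SPIDR chr4:79874937-80190744 on the minus strand in 17 to 20 exons, and TP53INP1 chr4:41747654-41766688 on the plus strand in 4 to 5 exons. Their spans were 189337, 315808 and 19035 bases. A noncoding RNA gene on the opposite strand overlaps MTHFD1L. The table was counted without regard to strand, so that reads of both cannot be told apart and the level of MTHFD1L is uncertain to that extent. No other gene overlaps SPIDR or TP53INP1.

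The 150 bases upstream of the annotated start are shown for MTHFD1L and SPIDR because these genes were high together at apical 1–3 h. They are 5′ to 3′ on the strand of the gene, from RefSeq's Sscrofa11.1 sequence at chr1:15330266-15330415 and chr4:80190745-80190894, with matches to the searched motifs on either strand in capitals.
MTHFD1L: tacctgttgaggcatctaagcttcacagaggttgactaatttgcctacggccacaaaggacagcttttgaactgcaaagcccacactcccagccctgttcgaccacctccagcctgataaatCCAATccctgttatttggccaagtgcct
SPIDR: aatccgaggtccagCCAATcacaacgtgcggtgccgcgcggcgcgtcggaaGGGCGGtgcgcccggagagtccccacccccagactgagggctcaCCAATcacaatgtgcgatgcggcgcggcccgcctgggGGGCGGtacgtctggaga
The searched motifs were the GC box (GGGCGG), the TATA box (TATAAA), the AP-1 element (TGANTCA), the cAMP response element (TGACGTCA), the E box (CACGTG) and the CCAAT box (CCAAT). The CCAAT box occurred once upstream of MTHFD1L and 2 times upstream of SPIDR, and was held by 23.1% of the 19546 windows of protein-coding genes. The GC box, held by 40.5% of windows, occurred 2 times upstream of SPIDR and 0 times upstream of MTHFD1L. The E box (held by 4.43% of windows), the TATA box (5.84%), the AP-1 element (3.04%) and the cAMP response element (1.39%) occurred in neither window. The GC content was higher than in 24.6% of windows for MTHFD1L and in 73.6% for SPIDR. Such matches describe letters only, and the annotated start may not be the one used in the heart.

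In the infarcted region at 1–3 h, MTHFD1L and SPIDR were at their highest and TP53INP1 and ENSSSCG00000030358 at their lowest of all 5 apical groups, as their choice requires for the comparison with baseline. Of the 17929 genes tested, 0.658% had every 1–3 h library above every baseline library and 1.92% every one below. At an adjusted p of 0.05 or less, 0.842% were higher and 0.781% lower. Nothing is read from the counts of the 5 genes against these shares, since the same contrast chose them. The median log2 fold difference of all tested genes was 0.12.

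MTHFD1L measured 3.58, 4.04, 4.50 and 4.66 log2 CPM in the 4 baseline libraries. The 9 apical 1–3 h libraries ran from 4.82 over a median of 5.83 to 6.73. The smallest distance between both groups was 0.16, and the fitted log2 fold difference was 1.77 ± 0.38 (SE). At 0–1 h the 5 libraries measured 4.55, 4.74, 5.11, 5.13 and 5.22, and 4 of them lay above all baseline libraries. The baseline libraries also chose this gene, so that order is a description. Levels were then 3.99, 4.35, 4.79 and 5.50 at 2 days and ran from 3.89 over 4.58 to 5.82 in the 7 libraries of 14 days. Both later groups overlapped baseline and the highest library of 14 days was a fibrous one.

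SPIDR had the largest SD of the 5 genes at baseline (1.03). Its baseline libraries measured 3.76 and 3.88 in swine 5385, 5.42 in swine 1640 and 5.76 in swine 1644. The apical 1–3 h libraries ran from 6.00 over 6.57 to 7.47, and the log2 fold difference was 1.67 ± 0.40 (SE). The 5 libraries of 0–1 h, at 4.57, 5.43, 5.71, 5.84 and 6.05, lay between these groups and overlapped both. At 2 days SPIDR measured 4.80, 5.18, 5.88 and 6.12, and at 14 days the libraries ran from 4.56 over 5.48 to 6.38. The mean of 14 days, 5.39 ± 0.57 (SD, n = 7), differed from that of 0–1 h, 5.52 ± 0.58 (SD, n = 5), by less than either spread.

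TP53INP1 was at 5.78, 5.86, 6.00 and 6.74 log2 CPM at baseline. In the 9 apical 1–3 h libraries it ran from 3.47 over 3.999 to 4.78, and the log2 fold difference was -1.94 ± 0.30 (SE). At 0–1 h it measured 4.24, 4.79, 5.36, 5.52 and 5.95, and 4 of 5 libraries lay below all baseline libraries. These baseline libraries chose the gene as high, and its mean in every other heart group was below their 6.10. No early fall is read from this order. At 2 days TP53INP1 measured 4.29, 5.13, 5.22 and 5.87, and at 14 days it ran from 4.24 over 5.59 to 6.08. All 3 libraries of swine 5385 at 14 days, 5.96, 5.98 and 6.08, lay within the range of baseline, and the 4 of the other swine below it.

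ENSSSCG00000030358 had the narrowest baseline, at 4.39, 4.56, 4.57 and 4.64 log2 CPM. In the 9 libraries of apical 1–3 h it ran from 2.48 over 3.13 to 3.99, and the log2 fold difference was -1.32 ± 0.26 (SE). At 0–1 h it measured 4.02, 4.25, 4.64, 4.99 and 5.04, on both sides of the baseline mean of 4.54. The 4 libraries of 2 days lay close together at 4.15, 4.16, 4.27 and 4.31, all below the lowest baseline library, as were those of 1.16% of genes, and the baseline libraries are those that chose the gene. At 14 days the libraries ran from 3.63 over 4.44 to 5.40 and spanned the baseline levels.

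ENSSSCG00000014997 did not fully separate 1–3 h from baseline. Its baseline libraries measured 2.90, 3.74, 3.96 and 4.92, and the 9 libraries of 1–3 h ran from 4.81 over 5.08 to 6.36, with 7 of 9 above all baseline libraries. The log2 fold difference was 1.29 ± 0.32 (SE). The first hour was narrow, with 4.17, 4.17, 4.23, 4.26 and 4.65, and lay within the range of baseline. The libraries of 2 days, at 4.31, 4.55, 4.91 and 5.02, had a mean of 4.70 ± 0.33 (SD, n = 4), between those of 1–3 h, 5.18 ± 0.47 (SD, n = 9), and 14 days, 4.12 ± 0.38 (SD, n = 7).

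**Figure D1:**
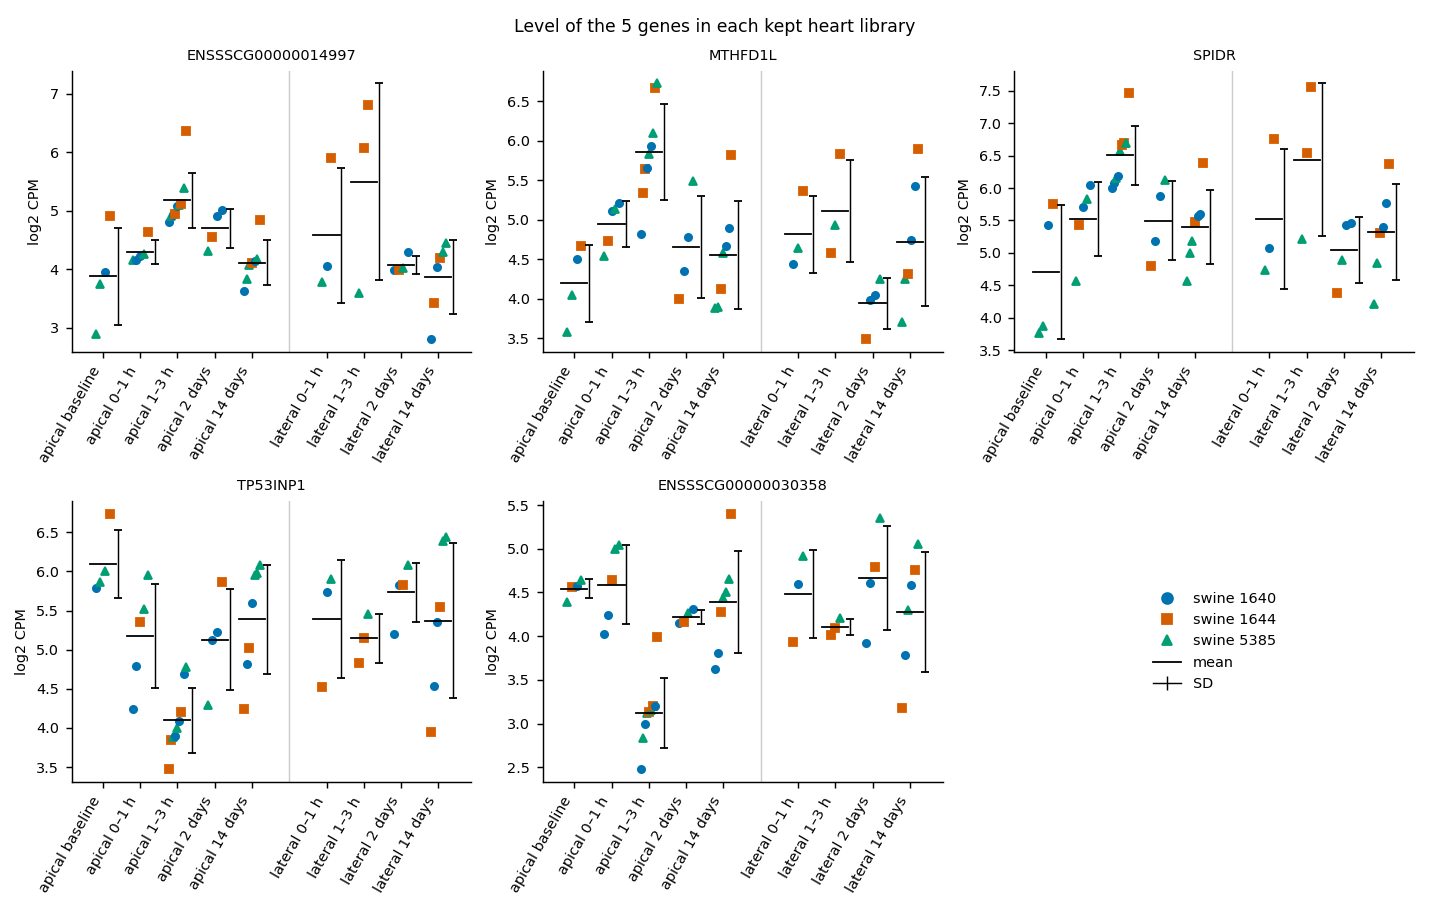
Level (log2 CPM, y axis) of each gene in each of the 45 kept heart libraries by region and timepoint (x axis), with points by swine, lines at the mean and bars of 1 SD. At apical 1–3 h MTHFD1L and SPIDR lay above and TP53INP1 and ENSSSCG00000030358 below all 4 baseline libraries, whereas the highest value of ENSSSCG00000014997, 6.82, was at lateral 1–3 h in swine 1644.

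Within each swine, the direction from the mean of baseline to that of apical 1–3 h is fixed by the choice of genes for the 4 that separate the groups, so the values describe its size. The difference in log2 CPM was 0.97, 1.22 and 2.41 for MTHFD1L in swine 1640, 1644 and 5385, and 0.66, 1.18 and 2.66 for SPIDR. It was -1.56, -2.90 and -1.71 for TP53INP1 and -1.68, -1.12 and -1.48 for ENSSSCG00000030358. The size of the rise of SPIDR and MTHFD1L thus differed most with swine 5385, which had the lowest baseline levels of both, and swine 1644 had 1 baseline library, a fibrous one. For ENSSSCG00000014997, which the choice does not fix in this way, the differences were 0.98, 0.56 and 1.81. Without the fibrous libraries, the fitted log2 fold difference was 1.95 for MTHFD1L, 1.84 for SPIDR, -1.68 for TP53INP1, -1.35 for ENSSSCG00000030358 and 1.49 for ENSSSCG00000014997.

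**Figure D2:**
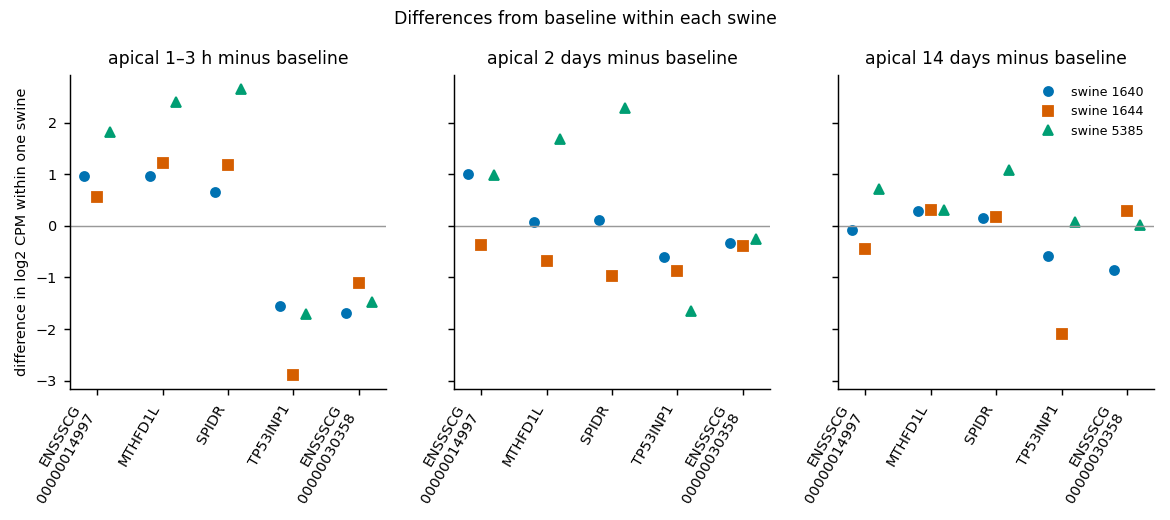
Difference in mean log2 CPM between an apical timepoint and baseline within each swine (y axis) for the 5 genes (x axis), 1 point per swine. At 1–3 h the directions of the 4 separating genes follow from their choice, and at 2 days the 3 swine lay on both sides of 0 for ENSSSCG00000014997, MTHFD1L and SPIDR.

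At 2 days the values within swine rest on 1 or 2 libraries. The library of swine 5385 was a fibrous one with 46.7% of counts in its 10 most counted genes, and swine 1644 had 1 library against 1 fibrous baseline library. SPIDR was 2.30 above its baseline mean in swine 5385, 0.11 above it in swine 1640 and differed by -0.96 in swine 1644, and MTHFD1L gave 1.68, 0.069 and -0.67 in the same order. TP53INP1 was below baseline in every swine, by -1.64, -0.61 and -0.87 in that order. Pooled over libraries and sharing the baseline libraries with the values above, the fitted log2 fold differences at 2 days were 0.72 ± 0.35 (SE) for ENSSSCG00000014997, 0.55 for MTHFD1L, 0.65 for SPIDR, -0.88 for TP53INP1 and -0.28 for ENSSSCG00000030358, where 0% of all genes were called higher and 0% lower. At 14 days they were 0.15, 0.50, 0.57, -0.60 and -0.016. Each was smaller in size than the difference at 1–3 h. No decline is read from this order, because the choice of genes rested on the contrast of 1–3 h with the same baseline libraries.

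Within the infarcted region, tests were limited to groups that did not choose the 4 separating genes, and none of them holds the 1–3 h libraries. Apical 14 days and 0–1 h gave 0 of 5 members called by the quasi-likelihood test of edgeR (adjusted by Benjamini and Hochberg), where 0% of 17929 genes were called, 597 had an unadjusted p under 0.05 and DESeq2 called 8. The log2 fold differences lay between -0.27 for MTHFD1L and 0.22 for TP53INP1, with SEs of 0.26 to 0.36. Apical 14 days against 2 days gave 0 of 5 members, where 0.00558% of genes (1 of 17929) were called, 541 had an unadjusted p under 0.05 and DESeq2 called 13. ENSSSCG00000014997 had the largest difference there, -0.57 ± 0.31 (SE), a value given as a description since 2 days was among the groups it was chosen on. The other 4 differed by -0.085 to 0.28.

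Biopsies aimed at the non-infarcted region were set beside those of the infarcted one. In the first 3 hours, ENSSSCG00000014997 and SPIDR had their highest levels in swine 1644, which also had the highest baseline level of both. ENSSSCG00000014997 measured 3.78, 4.06 and 5.90 at lateral 0–1 h and 3.60, 6.07 and 6.82 at lateral 1–3 h, and all 3 values above 5 came from this swine. SPIDR measured 4.73, 5.08 and 6.75, then 5.21, 6.54 and 7.56, with the same 3 libraries highest. The library with both highest values was a fibrous biopsy. At lateral 1–3 h, 2 of 3 kept libraries were of swine 1644, and the other was of swine 5385. The study reports that some lateral samples, all of the same animal, clustered with early samples of the infarcted region. It holds sampling inaccuracy most likely, with tissue taken in or near the infarct. Whether these samples were libraries of swine 1644 was not tested. The regions compared here are therefore those aimed at, and infarcted tissue in lateral libraries is not excluded.

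At lateral 1–3 h, TP53INP1 and ENSSSCG00000030358 lay between the libraries of apical 1–3 h and those of baseline. Both of these groups chose the 2 genes, so no difference between the regions is read from this order. TP53INP1 measured 4.83, 5.14 and 5.46 there, above all 9 apical libraries of that time (an order held by 0.315% of genes) and below all 4 of baseline (3.16%). ENSSSCG00000030358 measured 4.01, 4.09 and 4.20, again between all apical 1–3 h libraries and all baseline libraries. The fitted difference of apical from lateral at 1–3 h was -1.01 ± 0.36 (SE) for TP53INP1, -0.92 ± 0.28 (SE) for ENSSSCG00000030358, 0.81 ± 0.43 (SE) for MTHFD1L, -0.064 ± 0.46 (SE) for SPIDR and -0.63 ± 0.37 (SE) for ENSSSCG00000014997. These share the apical libraries that chose the genes and are given without a test. MTHFD1L measured 4.58, 4.93 and 5.83 at lateral 1–3 h, within the apical range in 2 of 3 libraries.

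Outside these libraries, apical and lateral biopsies were tested at the other times in 1 fit of 18097 genes. At 0–1 h, 0 of 5 members and 0% of genes were called, 0.956% of genes having an unadjusted p under 0.05 and DESeq2 calling 0. At 2 days, 0 of 5 members and 0% of genes were called, with 618 genes at an unadjusted p under 0.05 and 5 called by DESeq2. The 4 apical libraries of ENSSSCG00000014997 at 2 days, 4.31 to 5.02, lay above all 4 lateral ones, 3.98, 3.99, 4.02 and 4.30, as did those of 2.55% of genes. Its log2 fold difference of 0.65 ± 0.41 (SE) is a description, because the gene was chosen on these apical libraries. At 14 days, 0 of 5 members and 0% of genes were called, with 961 genes at an unadjusted p under 0.05 and 0 called by DESeq2, and the 5 log2 fold differences lay between -0.38 and 0.14.

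Within the lateral region, 14 days was set against the first 3 hours and against 2 days in a fit of 18185 genes. ENSSSCG00000014997 was lower at 14 days, where its 6 libraries ran from 2.82 over 4.12 to 4.46, by a log2 fold difference of -1.55 ± 0.47 (SE), with an edgeR adjusted p of 0.198. In this comparison 0 of 5 members and 0% of genes were called, 2034 genes had an unadjusted p under 0.05 and DESeq2 called 343 genes and 0 members. Without the only lateral 1–3 h library of swine 5385 (replicate 6) the difference was -1.73 with an edgeR adjusted p of 0.0272, and 490 genes were called. With the swine as a block it was -1.05 with an edgeR adjusted p of 0.612, and without the fibrous libraries -1.10 with 0.524. Over the other 4 genes the differences lay between -0.79 for SPIDR and 0.26 for TP53INP1.

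MTHFD1L was at its lowest heart levels at lateral 2 days. It measured 3.49, 3.98, 4.05 and 4.25 there and ran from 3.71 over 4.53 to 5.90 at lateral 14 days, with 4 of 6 libraries above all of 2 days. The log2 fold difference was 1.08 ± 0.43 (SE), with an edgeR adjusted p of 0.620, and it was positive in swine 1640 (1.07) and 1644 (1.61) and negative in swine 5385 (-0.27). The 2 highest libraries of 14 days, 5.90 in swine 1644 and 5.43 in swine 1640, reached a CPM of 1 in 22076 and 20949 genes. The other lateral libraries of 14 days reached it in 13975 to 15889. These 2 libraries were also the lowest lateral ones of 14 days for ENSSSCG00000014997, at 3.43 and 2.82. Leaving out single replicates kept the difference of MTHFD1L at 0.79 to 1.24. The part of the count profile of these libraries in the difference was not tested. In lateral 14 days against 2 days, 0 of 5 members and 0% of genes were called, with 1107 genes at an unadjusted p under 0.05 and 4 called by DESeq2. The difference between the regions in the change from 2 to 14 days was largest for MTHFD1L as well, -1.15 on the log2 scale, with an edgeR adjusted p of 0.876, and in this interaction 0 of 5 members and 0% of genes were called and 491 had an unadjusted p under 0.05. DESeq2 was not run for it.

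In blood, MTHFD1L was lower and ENSSSCG00000014997 and ENSSSCG00000030358 higher than in lateral heart at 14 days. Of the 5 members 3 were called in this comparison, where 28.5% of 19722 genes were called, so the share is read against a background in which many genes differ, and for 24.1% the libraries of both groups did not overlap. MTHFD1L measured 2.58, 2.83, 3.20, 3.27 and 3.62 log2 CPM in blood of 14 days, all below the 6 lateral libraries, and was higher in lateral heart by a log2 fold difference of 1.62 ± 0.37 (SE, edgeR adjusted p = 0.00273). ENSSSCG00000030358 measured 5.25, 5.73, 6.02, 6.29 and 6.57, all above the lateral range of 3.18 to 5.05, with a difference of -1.68 ± 0.39 (SE, edgeR adjusted p = 0.00326). ENSSSCG00000014997 measured 4.43, 5.12, 5.52, 5.60 and 5.76 in blood, where only the lowest reached the lateral range of 2.82 to 4.46, with a difference of -1.45 ± 0.38 (SE, edgeR adjusted p = 0.00768).

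SPIDR and TP53INP1 did not pass the threshold between lateral heart and blood. SPIDR differed by -0.36 ± 0.31 (SE, edgeR adjusted p = 0.451) and had a narrow range in the 5 blood libraries, 5.50 to 5.93, inside its lateral range of 4.22 to 6.37. TP53INP1 differed by -0.88 ± 0.44 (SE, edgeR adjusted p = 0.158), and its blood libraries ran from 5.95 to 6.72 beside 3.95 to 6.45 in lateral heart. Red blood cell markers, of which 5 of 6 were matched and HBM and ALAS2 were at 0, summed to 4028 to 14133 CPM in blood of 14 days and to 39.0 to 5116 in lateral heart of 14 days. Lymphocyte markers summed to 463 to 667 and 2.51 to 45.6 CPM, with CD79A at 0. The part of blood cells in the heart levels was not tested. With all libraries of at least 1000000 counts, 0 of 5 members were called, with differences of 0.69 for MTHFD1L, -1.33 for ENSSSCG00000030358 and -1.10 for ENSSSCG00000014997.

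**Figure D3:**
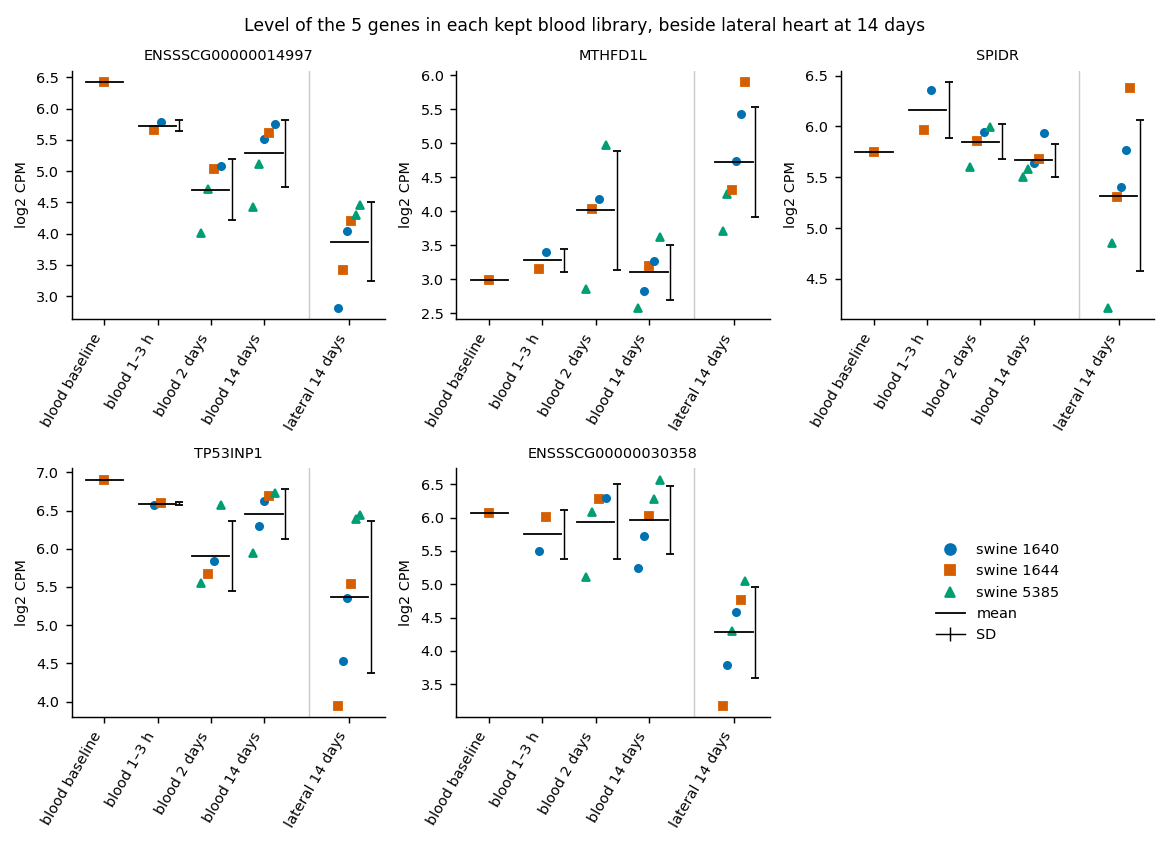
Level (log2 CPM, y axis) of each gene in each of the 12 kept blood libraries by timepoint, beside the 6 lateral heart libraries of 14 days (x axis), with points by swine, lines at the mean and bars of 1 SD. MTHFD1L was lower in all 5 blood libraries of 14 days than in lateral heart, and ENSSSCG00000030358 higher.

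Over time in blood, ENSSSCG00000014997 measured 6.43 in the only kept baseline library, 5.66 and 5.79 at 1–3 h, and 4.01, 4.71, 5.03 and 5.08 at 2 days. All 4 libraries of 2 days were below both of 1–3 h, as were those of 6.72% of genes, with a log2 fold difference of -0.93 ± 0.33 (SE) and an edgeR adjusted p of 0.914. TP53INP1 was arranged likewise, at 6.90, then 6.58 and 6.60, then 5.55, 5.67, 5.83 and 6.57. Its nearest libraries of 1–3 h and 2 days measured 6.577 and 6.567. The difference was -0.59 ± 0.27 (SE), with an edgeR adjusted p of 0.914. Swine 5385 had no kept blood library at baseline or 1–3 h, and gave the 4.01 and 4.71 of ENSSSCG00000014997 at 2 days. With the swine as a block, the differences were -0.60 for ENSSSCG00000014997 and -0.65 for TP53INP1. In blood 2 days against 1–3 h, 0 of 5 members and 0% of 18956 genes were called, with 733 genes at an unadjusted p under 0.05 and 11 called by DESeq2.

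MTHFD1L varied most in blood at 2 days, with 2.86 and 4.97 in the 2 libraries of swine 5385, 4.04 in swine 1644 and 4.18 in swine 1640. The library at 4.97 reached a CPM of 1 in 20646 genes, the other kept ones of 2 days in 15972 to 17221. It was also the lowest of them for ENSSSCG00000014997, at 4.01. The part of this library's profile in its levels was not tested. The log2 fold difference of MTHFD1L at 14 days from 2 days was -1.15 ± 0.38 (SE), with an edgeR adjusted p of 0.707. ENSSSCG00000014997 (0.56 ± 0.27, SE) and TP53INP1 (0.48 ± 0.22, SE) differed in the other direction, each with an edgeR adjusted p of 0.707, and SPIDR and ENSSSCG00000030358 by -0.24 and -0.015. In this comparison 0 of 5 members and 0% of genes were called, with 1214 genes at an unadjusted p under 0.05 and 1 called by DESeq2.

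The libraries left out for an even count profile, with less than 7% of counts in 10 genes, had narrow ranges of the 5 genes. On a common TMM scaling of all libraries of at least 1000000 counts, MTHFD1L ran from 6.01 over 6.24 to 6.33 log2 CPM in the 15 left-out heart libraries, against 3.58 over 5.02 to 7.02 in the 45 kept ones. SPIDR ran from 6.61 over 6.79 to 6.92, and both genes were above their highest kept baseline library, 5.03 and 6.12, in all 15. Nothing is read from that order, since the baseline libraries chose both genes as low and its share over all genes was not counted. TP53INP1 (median 3.14) and ENSSSCG00000030358 (3.12) were below their kept medians of 5.65 and 4.55. By their medians, as a description, the 4 separating genes lay on the same side in the left-out libraries as at 1–3 h. ENSSSCG00000014997, high at 1–3 h, was low in them, with a median of 2.99 against 4.52.

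Among all 17929 genes, the difference in mean between left-out and kept heart libraries was 1.10 for MTHFD1L, above 66.5% of genes, 0.89 for SPIDR, above 64.2%, -2.28 for TP53INP1, above 10.2%, -1.73 for ENSSSCG00000014997, above 18.8%, and -1.27 for ENSSSCG00000030358, above 28.0%. Across named genes with a RefSeq span, Spearman's rho of this difference with the log2 fold difference of apical 1–3 h from baseline was 0.33, as a description over genes that are not independent replicates. The share of the 10 most counted genes overlapped between the kept groups and ran from 13.8 to 35.9% at baseline and 17.7 to 33.5% at apical 1–3 h. Over the 45 kept heart libraries, Pearson's r of that share with the level lay between -0.25 for SPIDR and 0.25 for ENSSSCG00000030358, as a description. With the left-out libraries included, the log2 fold difference of apical 1–3 h from baseline was 1.32 for MTHFD1L, 0.87 for SPIDR, -1.71 for TP53INP1, -1.85 for ENSSSCG00000030358 and 0.18 for ENSSSCG00000014997, which at 2 days then had -0.95. The part of this profile in the levels of the kept libraries was not tested.

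**Figure D4:**
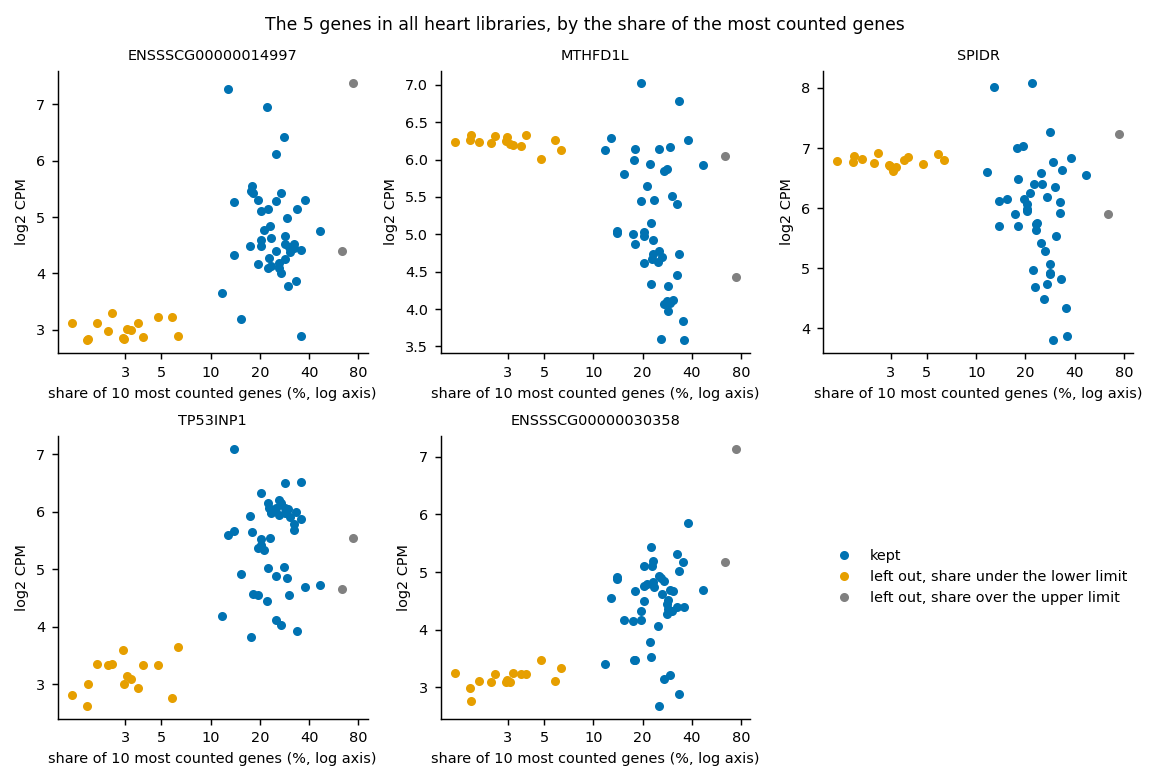
Level (log2 CPM, y axis) of each gene in all 62 heart libraries against the share of counts in the 10 most counted genes of the library (percent, log x axis), with kept libraries and those left out below or above the limits in separate colours. The 15 libraries under the lower limit held MTHFD1L at 6.01 to 6.33 and ENSSSCG00000014997 at 2.81 to 3.30, while the kept libraries spread over several log2 units.

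Other cells of the biopsy were measured beside the contrast of apical 1–3 h with baseline. Summed CPM at baseline and at 1–3 h ran from 2559 to 39787 and 1266 to 83627 for 7 fibroblast markers, of which POSTN was at 0. It ran from 676 to 1131 and 69.6 to 975 for the 5 of 6 endothelial markers matched, and from 87.6 to 305 and 52.0 to 507 for 5 macrophage markers. The 3 of 6 neutrophil markers matched gave 0.501 to 3.06 and 0.763 to 38.2 CPM, 6 lymphocyte markers 3.34 to 7.60 and 2.17 to 20.4, and 5 red blood cell markers 12.6 to 4078 and 13.6 to 5897. These ranges overlapped for every list, but the medians of red blood cell markers were 1901 at baseline and 41.0 at 1–3 h, and those of neutrophil markers 1.92 and 5.54. TP53INP1 and ENSSSCG00000030358, low at 1–3 h, had higher medians over the 12 blood libraries (6.57 and 6.05) than over the 45 heart libraries (5.22 and 4.27). So had ENSSSCG00000014997 (5.32 against 4.26) and SPIDR (5.80 against 5.57), high at 1–3 h, whereas MTHFD1L had a lower median in blood (3.24 against 4.74). The part of these cells in the levels of the 5 genes was not tested.

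Genes of the pathways of the 5 members, from lists chosen with earlier results of these data known, were counted at apical 1–3 h against baseline without the members, and each count stands beside the 0.842% of all genes called higher and 0.781% called lower. Of 19 tested genes of folate one-carbon metabolism, 7 had a positive difference, 1 was called lower and 0 higher, with a median log2 fold difference of -0.53 beside 0.12 for all genes. ALDH1L2, the mitochondrial 10-formyltetrahydrofolate dehydrogenase, fell by 1.27 on the log2 scale (edgeR adjusted p = 0.0409), from 5.35 ± 0.90 to 4.13 ± 0.57 (SD, n = 4 and 9). SHMT1 (-1.52) and MTHFD1 (-0.69) did not pass, with edgeR adjusted p of 0.116 and 0.120.

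Of 21 p53 targets and autophagy regulators, 2 were called higher and 1 lower, 11 had a positive difference, and the median was 0.16. PLK2, a stress-induced kinase, rose by 1.49 ± 0.36 (SE, edgeR adjusted p = 0.0358), and SESN2, a stress sensor that restrains mTORC1, rose by 2.89 ± 0.71 (SE, edgeR adjusted p = 0.0369). ULK1, the kinase that starts autophagy, fell by 0.89 on the log2 scale (edgeR adjusted p = 0.0481). CDKN1A, the cell cycle inhibitor induced by p53, had 2.29 ± 0.66 (SE, edgeR adjusted p = 0.0632).

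Because the study's annotation places ENSSSCG00000014997 under inflammatory response, proteolysis and apoptotic signalling, and ENSSSCG00000030358 under negative regulation of toll-like receptor signalling, 2 further lists were taken. Of 15 inflammasome and caspase genes, 1 was called higher, 0 lower and 10 had a positive difference, with a median of 0.45. CASP10, an initiator caspase of death receptors, rose by 1.84 ± 0.38 (SE, edgeR adjusted p = 0.0238), from 5.22 ± 0.34 to 6.85 ± 0.75 (SD, n = 4 and 9). GSDMD (1.29), NLRP3 (1.26) and IL1R1 (2.06) did not pass. Of 18 genes of NAD metabolism and TIR adaptors, 1 was called lower, 0 higher and 7 had a positive difference, with a median of -0.069. NADSYN1, an NAD synthetase, fell by 1.32 on the log2 scale (edgeR adjusted p = 0.0374), and TICAM1 (1.20), NMNAT1 (-1.05) and PARP1 (-0.66) did not pass.

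The immediate early and injury response list was chosen with earlier results of these data known, so its direction is a description. Nothing is read from it about the 5 genes. It had the largest median of the 6 lists. All 25 tested genes had a positive difference with a median of 3.29, and 9 were called higher, among them CCL2 (4.52 ± 1.01, SE), KLF6 (2.23 ± 0.50), FOSL1 (8.32 ± 1.88) and OSMR (2.80 ± 0.64). CCL2 is a monocyte chemokine, KLF6 and FOSL1 are transcription factors and OSMR is the receptor of oncostatin M, and their edgeR adjusted p were 0.0269 to 0.0278. FOSL1 was below 1 CPM at baseline (mean -1.57 log2 CPM), so its size depends on the prior count. Of 14 matrix and wound repair genes, 1 was called higher, THBS1 (4.65 ± 1.20, SE, edgeR adjusted p = 0.0430), and 11 had a positive difference, with a median of 0.57. At 2 days against baseline, 0 genes of every list were called with edgeR, and DESeq2 called 2. The 16 calls at 1–3 h rested on few libraries, since leaving out 1 baseline library (replicate 2, 5 or 6) left 0 and DESeq2 gave 42.

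**Figure D5:**
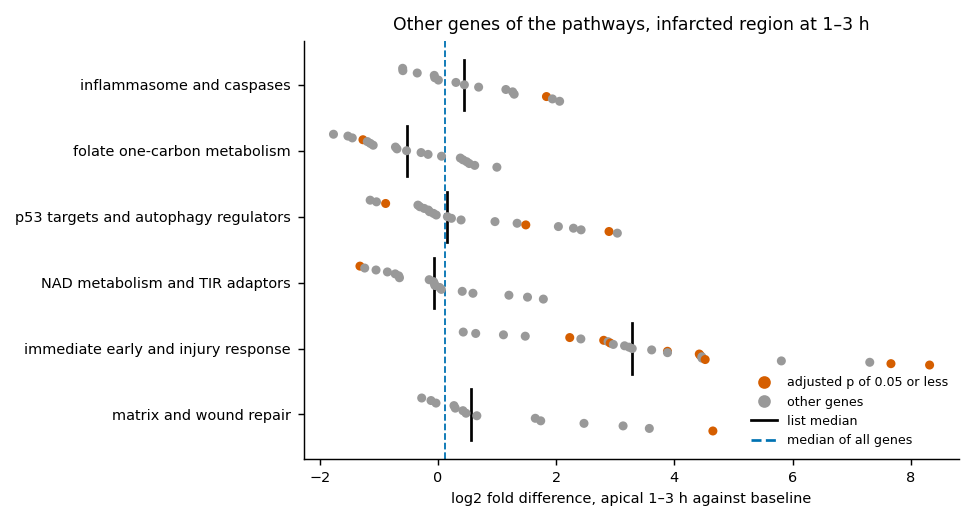
Log2 fold difference of apical 1–3 h from baseline (x axis) for the tested genes of each list without the 5 members (y axis, 1 point per gene), with called genes coloured, a bar at the median of the list and a dashed line at the median of all genes, 0.12. The immediate early list lay wholly above 0 with a median of 3.29, while the folate list had a median of -0.53.

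Across the 45 kept heart libraries, Pearson's r between the 5 genes is a description over libraries that share swine and timepoints and include those that chose the genes, which shapes its sign. It was 0.81 for MTHFD1L with SPIDR and -0.79 for MTHFD1L with TP53INP1, and 0.70 and -0.61 after the group means were removed. TP53INP1 and ENSSSCG00000030358 had 0.73 and 0.48. ENSSSCG00000014997 and SPIDR had 0.71 and 0.53. Within groups r was 0.083 for ENSSSCG00000014997 with MTHFD1L, 0.00087 with TP53INP1 and 0.12 with ENSSSCG00000030358, and -0.18 for MTHFD1L with ENSSSCG00000030358. Of 18096 other genes, those most like ENSSSCG00000014997 were FAM111A (r = 0.88), STK3 (0.84) and BCL6 (0.84). Those most like MTHFD1L were BMAL2 (0.84), SH2D5 (0.82) and STX3 (0.81), and those most like SPIDR were KLHL29 (0.90), BDKRB2 (0.88) and IL1RAP (0.88). TP53INP1 was most like BLTP1 (0.89), ZC3H6 (0.86) and PHF21A (0.86), and ENSSSCG00000030358 was most like ENSSSCG00000038095 (0.81), CEP250 (0.80) and XYLT2 (0.80).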

How the data were processed

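RNA of micro-EMB and blood was sequenced after preparation with the SMARTer Pico kit. Per the labels, the authors mapped reads to Sscrofa11.1 with STAR and counted them per Ensembl gene with featureCounts, without regard to strand, and deposited raw counts of 31907 genes in 85 libraries. Molecules were not marked, so errors of counts cover counting only. Total counts of the 57 libraries used were 3499443 to 16659110.

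Libraries were kept with a total count of at least 1000000 and 7 to 60% of counts in their 10 most counted genes. Genes reaching a CPM of 1 in 20% or more of a fit's libraries were tested with edgeR 4.0.16 in R 4.3.3, using TMM and the quasi-likelihood test with region and timepoint as the only term, at a Benjamini-Hochberg adjusted p of 0.05. The apical, lateral (with baseline), both-region and blood libraries were fitted separately, and lateral and blood at 14 days in a fit of their own. The lateral first 3 hours are the mean of the 0–1 h and 1–3 h coefficients. Levels are log2 CPM with a prior count of 2. DESeq2 1.42.0 was an alternative, as were RLE scaling, no filter, all libraries of at least 1000000 counts, no fibrous libraries, the swine as a block and leaving out each replicate. The code was tested on simulated data.

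The labels give each library's swine, which pairs libraries across groups, whereas replicate numbers only name them. Deviations from group means of libraries of 1 swine correlated with a mean r of 0.119 in apical, 0.0755 in lateral and 0.0975 in blood libraries, against -0.0520, -0.0315 and -0.0454 between swine.

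The members, lists and tests were chosen with earlier results of these data known. Genes named are the members, the 3 most correlated with each, and up to 4 of each list by adjusted p at 1–3 h, of which 1 is not reported here. Of the identifiers, 15029 had a symbol, and 3 of the 5 members.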

Additional observations from a re-analysis of the deposited data

Results flagged for a closer look

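Of 45 sets of 4 to 10 libraries (a gene in a group), 5 held a library that stood apart by Dixon's criterion, beside about 1 in 20 that chance gives. ENSSSCG00000014997 stood apart at apical 0–1 h in replicate 2 (4.65 log2 CPM, the nearest library at 4.26), at apical 1–3 h in replicate 6 (6.36, the nearest at 5.40) and at lateral 2 days in replicate 6 (4.30, the nearest at 4.02). Apical 1–3 h replicate 6, a fibrous library of swine 1644, was also apart for SPIDR, at 7.47 with the nearest at 6.70. ENSSSCG00000030358 stood apart at apical 1–3 h in replicate 3, at 3.99 with the nearest at 3.20. Without apical 1–3 h replicate 6 the log2 fold difference from baseline was 1.13 for ENSSSCG00000014997 and 1.55 for SPIDR, and without replicate 3 it was -1.42 for ENSSSCG00000030358. The heart libraries left out for an even count profile held MTHFD1L at a median of 6.24 log2 CPM and SPIDR at 6.79, above the highest kept baseline library of each (5.03 and 6.12). The baseline libraries chose both genes as low, and the source of the counts in the left-out libraries was not tested.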

How the results depend on the processing

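No member was called in 9 of the 10 tested comparisons and 3 in lateral against blood at 14 days, and these counts were the same with DESeq2, RLE scaling, no filter on low counts, the swine as a replicate block and without fibrous libraries. With all libraries of at least 1000000 counts 0 members were called in lateral against blood, and leaving out single replicates gave 0 to 1 members called in lateral 14 days against the first 3 hours. The block kept 3 members called in lateral against blood, lost the only gene called in apical 14 days against 2 days (0 against 1), gave 14 list genes at apical 1–3 h, and changed no call of a member. List genes called at apical 1–3 h against baseline were 16, 42 with DESeq2, 3 with all libraries and 0 to 26 when replicates were left out. At 2 days DESeq2 called 2.

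Genes called at apical 1–3 h against baseline, 291, became 1423 with DESeq2, 0.471% of the genes tested with all libraries, 8, 15, 33 and 36 without baseline replicates 2, 5, 1 and 6, and 584 and 760 without 1–3 h replicates 7 and 11. Lateral 14 days against the first 3 hours, with 0, had 343 with DESeq2, 11 without the filter, and 490, 70 and 65 without lateral 1–3 h replicate 6 and 0–1 h replicates 2 and 3. DESeq2 called 8, 13, 8, 4, 5, 1 and 11 genes in apical 14 days against 0–1 h, apical 14 days against 2 days, apical 2 days against baseline, lateral 14 days against 2 days, the regions at 2 days, blood 14 days against 2 days and blood 2 days against 1–3 h. The only gene called in apical 14 days against 2 days was lost in 8 of 11 leave-outs, and 2 were called in the others that changed. In lateral against blood, 5617 genes became 3276 with all libraries.

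Log2 fold differences that did not pass changed sign as follows, and the cause was not tested. In lateral 14 days against the first 3 hours MTHFD1L gave 0.16 with DESeq2 and with RLE and 0.28 without fibrous libraries. In lateral 14 days against 2 days ENSSSCG00000014997 gave 0.020 with DESeq2 and 0.019 with RLE. In the regions at 14 days ENSSSCG00000030358 gave -0.0052 with DESeq2, -0.00046 with RLE, -0.0088 with the block and -0.18 without fibrous libraries, and at 0–1 h -0.0047 without fibrous libraries, while SPIDR gave 0.048 with the block. MTHFD1L gave 0.040 in apical 14 days against 2 days without fibrous libraries. With all libraries, SPIDR gave 0.13 in apical 14 days against 0–1 h, lateral 14 days against 2 days gave 0.23, -0.033, -0.27, 0.38 and 0.071 (ENSSSCG00000014997, MTHFD1L, SPIDR, TP53INP1, ENSSSCG00000030358), the regions at 14 days gave -0.021, 0.20, 0.30 and -0.15 (ENSSSCG00000014997, MTHFD1L, SPIDR, ENSSSCG00000030358), and blood 2 days against 1–3 h gave -0.35 (MTHFD1L) and 0.065 (TP53INP1).

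Leaving out single replicates gave ranges across 0 of -0.33 to 0.018 for SPIDR in apical 14 days against 0–1 h, and of -0.29 to 0.32 (MTHFD1L) and -0.26 to 0.16 (SPIDR) in apical 14 days against 2 days. They were -0.28 to 0.17 (MTHFD1L) and -0.090 to 0.27 (ENSSSCG00000030358) in lateral 14 days against the first 3 hours, and -0.16 to 0.079 (ENSSSCG00000014997) and -0.30 to 0.088 (TP53INP1) against 2 days. For the regions they were -0.97 to 0.39 (ENSSSCG00000014997), -0.048 to 0.46 (MTHFD1L), -0.54 to 0.72 (SPIDR) and -0.12 to 0.32 (ENSSSCG00000030358) at 0–1 h, and -0.32 to 0.21 (SPIDR), -0.33 to 0.069 (TP53INP1) and -0.18 to 0.18 (ENSSSCG00000030358) at 14 days. In blood 14 days against 2 days ENSSSCG00000030358 gave -0.23 to 0.13. Where a blood library of 1–3 h was left out for 2 days against 1–3 h, the lone other one is assumed to vary like the other groups. Mean levels moved by more than the SD of their group in 13 of 60 cases without TMM factors and in 25 of 60 with all libraries, blood baseline with its single library aside. Groups of 2 to 9 libraries from 3 swine limit the precision.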

Other observations

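Among 11865 tested genes with a symbol and a RefSeq span, the median log2 fold difference of apical 1–3 h from baseline was -0.065 for 2008 genes under 10 kb, 0.046 for 3480 genes of 10 to 30 kb, 0.068 for 3911 genes of 30 to 100 kb and 0.17 for 2466 genes over 100 kb. MTHFD1L and SPIDR belong to the last of these and TP53INP1 to the second. The median difference between left-out heart libraries of even profile and kept ones rose from -1.30 for genes under 10 kb to -0.065 for genes over 100 kb. Genes are not independent replicates, and these values share libraries.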
